A study of Arabidopsis thaliana with 32 samples.

Results

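Roots of Arabidopsis thaliana, wild-type accession Columbia-0, were transferred for 15 min to hydroponic solution with NaCl at 25, 50, 75 or 100 mM or, as control, to the same solution without added solute. Plants were 16 days old, and whole roots were collected, so all cell types of the root were pooled. The NaCl dose series was chosen by its labels and comprised 8 NaCl arrays (2 for each dose) and 2 control arrays, 10 of the 32 arrays in the series. The other arrays were roots of the same accession and age treated for the same time with sorbitol, polyethylene glycol or ethylene glycol, and the study asked about early responses to changes in turgor and osmotic potential. The labels do not say whether the 2 replicate arrays go back to separate cultures, so p-values reflect only the spread between these samples, which may be technical. In whole roots, fewer cells of a type and less RNA per cell cannot be told apart.

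NaCl in the root medium lowers the water potential around the root and also brings sodium and chloride ions to its surface. Within seconds to minutes of such a change, root cells raise cytosolic calcium, and calcium-binding proteins, receptor-like kinases and zinc finger transcription factors are among the early responders known in this plant. Cell walls and wall-loosening proteins such as expansins govern growth under changed turgor, while the dehydration genes of the abscisic acid pathway are usually described as a later layer.

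Expression was given as log2 values for 28283 genes, of which 16552 had a gene name and 11731 were known by probe set only. Each group had 1 array in each of 2 runs, taken from the numbers in the sample titles, and arrays of one run deviated together. The array medians lay between 4.11 and 4.24. Of the tissue markers, 1 of 12 for root and 2 of 10 for leaf were measured under a single gene name. EXPA7, an expansin of root hair cells, averaged 7.59 over the 10 arrays, while the stomatal factors SPCH and FMA averaged 1.54 and 1.76, near the low end of the deposited range of 0.2 to 12.45. "Rose" and "fell" are used for genes with an adjusted p under 0.05 (limma across all genes, run as a block, Benjamini-Hochberg). Changes are log2 differences, NaCl minus control of the same run, given with the standard error (SE) of the fit. The fit over 32 arrays took its error from 15 residual degrees of freedom.

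Few genes were called at the low doses, and most calls at the high doses were rises. At 25 mM, 1 gene rose and 1 fell (0.00707% of the genes tested). At 50 mM, 2 rose and 5 fell (0.0247%). At 75 mM, 28 rose and 9 fell (0.131%). At 100 mM, 140 rose and 26 fell (0.587%). Counts at an unadjusted p under 0.05 were flatter, with 1461, 2495, 2056 and 2428 genes in the order of rising dose. These calls rest on the run as a block: without it, 0 genes passed limma's test at each dose, and 419, 828, 592 and 722 genes reached an unadjusted p under 0.05. They also rest on the control array of run 2, without which the counts were 1, 0, 1 and 24 in the order of rising dose. Leaving out the 75 mM array of run 2 gave 5 genes at 75 mM. At 100 mM, 54 genes remained past the threshold without the 100 mM array of run 1 and 81 without that of run 2.

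**Figure D1:**
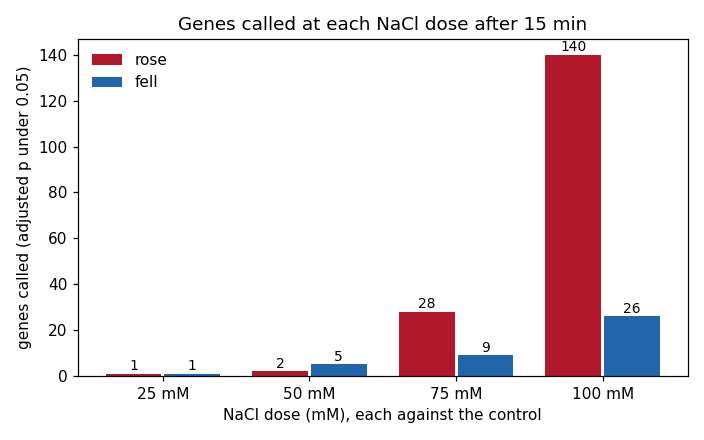
Number of genes that rose and fell at each NaCl dose against the control (y axis, genes with an adjusted p under 0.05; x axis, dose in mM). The bars for genes that rose stand at 1, 2, 28 and 140, and those for genes that fell at 1, 5, 9 and 26.

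Few genes had their first call at the low doses. At 50 mM more genes fell than rose in the deposited scaling, but 11 rose and 5 fell after quantile normalisation and 18 rose and 8 fell after centring on array medians. The gene that rose at 25 mM was known by probe set 13513952 only. Its values were 7.19, 8.01, 7.89, 7.62 and 7.72 at 0, 25, 50, 75 and 100 mM in run 1, and 5.76, 6.52, 6.88, 6.71 and 6.61 in run 2. It stepped up at the lowest dose in both runs and stayed there, with changes of 0.79, 0.91, 0.69 and 0.69, and was called at all 4 doses. The gene that fell at 25 mM, probe set 13374823, had 2.16 and 3.08 on the 25 mM arrays, against 4.94 and 4.99 on the control arrays, and its changes at the higher doses were −0.10, −0.32 and −0.20. The call of probe set 13513952 at 25 mM was lost without the control array of run 2, either 25 mM array or either 100 mM array. That of probe set 13374823 was lost without the control array of run 1 or either 25 mM array. Both were lost without the variance trend in the fit. The 2 probe sets that moved at 25 mM are named here because they were the only calls at that dose, after their values were seen.

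At 50 mM the first calls included 1 rise and 5 falls, and 4 of these 6 genes had a name. AGL79, a MADS-box transcription factor, had 7.33 and 5.78 at 50 mM, against 6.59 and 4.77 in the control, a rise of 0.87 (SE 0.13, adjusted p = 0.00519). AGL79 was as high at 25 mM as at 75 mM, with changes of 0.63 and 0.53, neither past the threshold, and it rose again at 100 mM (0.72, adjusted p = 0.00612). AT1G76240, a protein of unknown function, showed the deepest of the named early falls. Its values were 7.38, 6.56, 6.26, 6.45 and 6.78 at 0, 25, 50, 75 and 100 mM in run 1, and 6.94, 5.62, 5.69, 5.82 and 5.94 in run 2. All 8 NaCl arrays of AT1G76240 lay below both control arrays, and how often this held over all genes was not counted. The change was −1.07 at 25 mM (adjusted p = 0.0623), −1.18 at 50 mM (adjusted p = 0.00973), −1.02 at 75 mM (adjusted p = 0.0166) and −0.80 at 100 mM (adjusted p = 0.0476). The lowest level lay at 50 mM in run 1 and at 25 mM in run 2, and no dose slope was called (−0.62 per 100 mM, SE 0.17, adjusted p = 0.0826).

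AT1G61840, a cysteine- and histidine-rich C1-domain protein, had 4.83 and 5.31 at 50 mM, against 5.70 and 6.02 in the control (−0.79, SE 0.14, adjusted p = 0.0351). BZIP61, a bZIP transcription factor, had 7.75 and 7.17 at 50 mM, against 8.35 and 7.83 in the control (−0.63, SE 0.11, adjusted p = 0.0275). BZIP61 did not pass the threshold at 75 or 100 mM (−0.49 and −0.40), whereas AT1G61840 fell again at 100 mM (−0.71, adjusted p = 0.0128). Each of the 4 named genes lost its call at 50 mM without the control array of run 2, and without between 1 and 3 other arrays. The calls of AT1G76240, AGL79 and AT1G61840 at the higher doses were lost without that control array as well.

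At 75 mM rises outnumbered falls. Of the 28 genes that rose at this dose, 26 also rose at 100 mM, and 27 had their first call here. Their median changes were 0.19, 0.66, 0.97 and 1.26 at 25, 50, 75 and 100 mM. AT4G16855 went another way, with a rise of 1.36 at 75 mM (SE 0.28, adjusted p = 0.0429) and a change of 0.19 at 100 mM. It averaged 1.54 over the 10 arrays, near the low end of the deposited range, and lost its call when any of 5 arrays was left out. The 7 genes that first fell at 75 mM had medians of −0.28, −0.55, −0.80 and −0.67, and 3 of them fell again at 100 mM. All doses are compared with the same 2 control arrays, so the repeated calls are not independent. At 100 mM, 113 further genes had their first call as rises, with medians of 0.03, 0.38, 0.55 and 0.86 over the doses. A further 20 had theirs as falls (−0.38, −0.47, −0.53 and −0.64). Genes first called as falls at 100 mM thus had a larger median change at 25 mM than genes first called as rises there, a description of called genes that was not tested. A first call is not a first movement, since p-values were adjusted within each dose. The mean of 75 and 100 mM was called as different from that of 25 and 50 mM for 39 of the 113 and 0 of the 20. For first calls at 75 mM this held for 19 of the 27 rises and 0 of the 7 falls, and for 0.322% of all genes tested. The same arrays enter both comparisons.

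EXPA20, an alpha-expansin that belongs to the family of wall-loosening proteins, shared the smallest adjusted p at 75 mM with AT3G29000 and probe set 13383152. Its values were 4.88, 4.70, 5.68, 6.24 and 6.13 at 0, 25, 50, 75 and 100 mM in run 1, and 4.48, 4.41, 5.17, 5.57 and 5.90 in run 2. In both runs EXPA20 was slightly below the control at 25 mM and above it at every higher dose. The change was −0.13 at 25 mM, 0.74 at 50 mM (adjusted p = 0.0507), 1.23 at 75 mM (adjusted p = 0.000282) and 1.34 at 100 mM (2.52-fold, SE 0.15, adjusted p = 1.6e-05). Among the genes that rose at 75 mM, EXPA20 alone remained called whichever of the 10 arrays was left out.

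**Figure D2:**
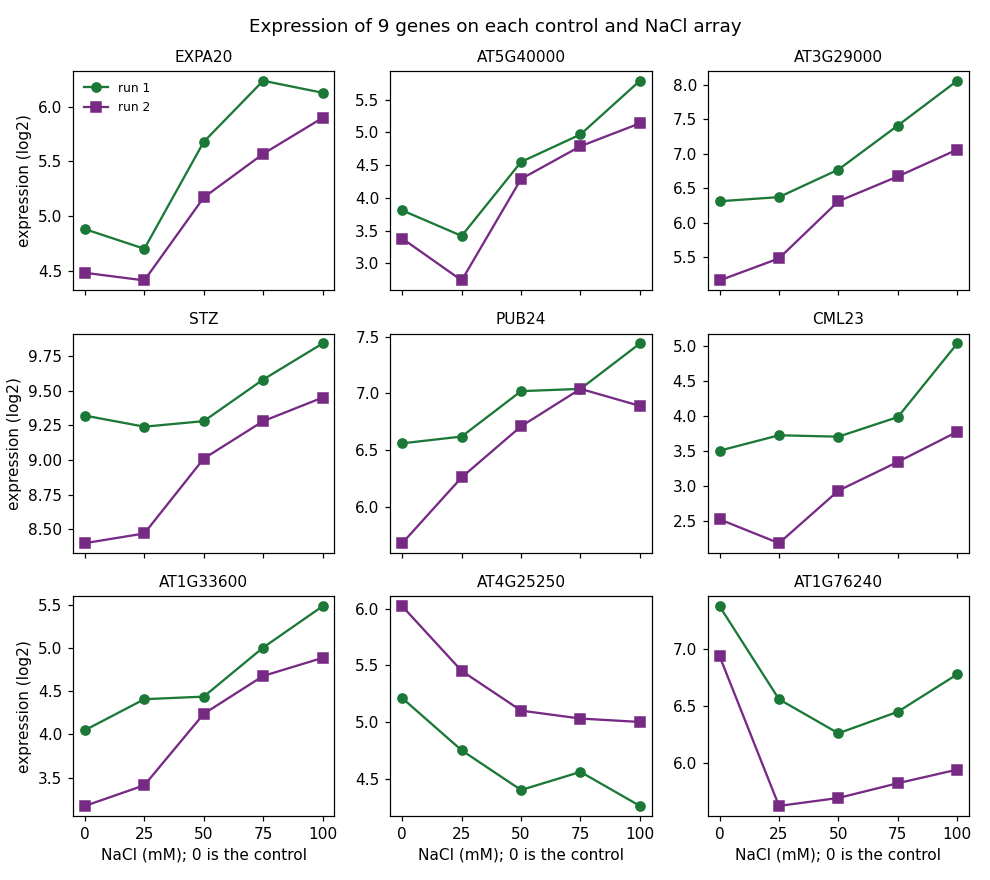
Expression (log2, y axis) of 9 genes on each control array (0 mM) and each NaCl array (x axis, mM), with 1 line for each run. EXPA20 and AT5G40000 dip or stay level at 25 mM before they climb, AT3G29000, STZ, CML23 and AT1G33600 are highest at 100 mM in both runs, PUB24 is highest at 100 mM in run 1 and at 75 mM in run 2, AT4G25250 falls, and AT1G76240 is lowest at 25 or 50 mM.

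As a trend over the 5 levels from 0 to 100 mM, 252 genes rose and 57 fell with dose (1.09% of the genes tested, 2678 genes at an unadjusted p under 0.05). The median slope of the rising genes was 0.81 log2 units per 100 mM and that of the falling genes −0.57. A slope above 1 was seen in 72 of the rising genes and a slope below −1 in 3 of the falling ones. The slope sets the higher doses against the control and the lowest dose, with most weight on 100 mM and the control. The middle of the 5 levels carries no weight in it. The slope called more genes than any single dose, and the reason was not tested. Of the rising genes 114, and of the falling genes 32, had no call at a single dose. Without the run as a block, 8 genes were called and all of them rose. Without the control array of run 2, 80 rose and 9 fell. The count was 153 without the 100 mM array of run 1 and 188 without that of run 2. Whichever of the 10 arrays was left out, 62 of the 252 rising genes (36 named) and 4 of the 57 falling genes (AT1G78260, AT3G06035, AT4G25250 and probe set 13383152) remained called.

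The rising and the falling genes differed in their median changes over the doses. The rising genes had a median change of 0.02 at 25 mM, 0.34 at 50 mM, 0.51 at 75 mM and 0.78 at 100 mM, and 121 of the 252 lay below the control at 25 mM. The falling genes had medians of −0.23, −0.40, −0.53 and −0.60, and 5 of the 57 lay above the control at 25 mM. Group means climbed at each step from 25 mM on in 194 of the 252 rising genes and declined at each step in 17 of the 57 falling genes. The rises were smaller in run 1, with medians of −0.03, 0.20, 0.34 and 0.69, than in run 2, with 0.04, 0.47, 0.67 and 0.84. These medians and counts describe genes chosen by their slope on the same arrays, so steps in the direction of the slope are partly built in. The shares over all genes were not counted, and the difference between the 2 sets was not tested. A bend of the dose course was called for 0 genes.

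**Figure D3:**
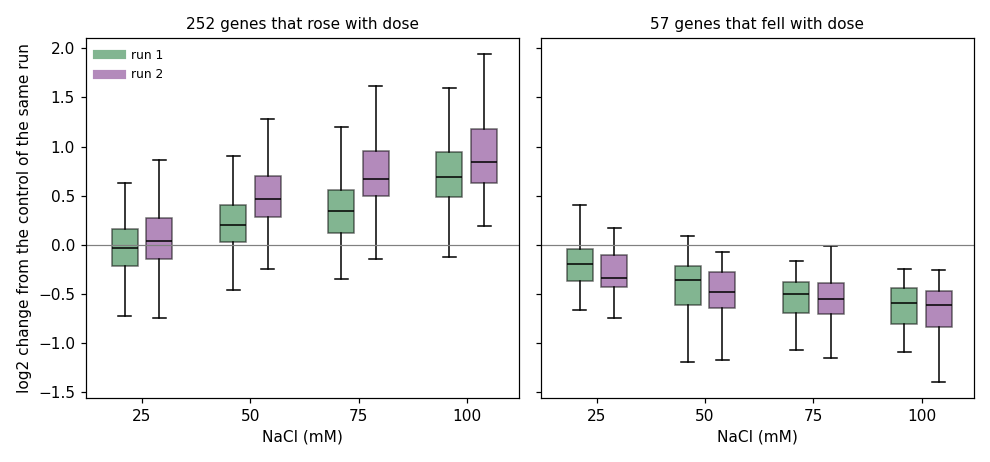
Log2 change from the control of the same run (y axis) at each NaCl dose (x axis, mM) for the 252 genes that rose and the 57 that fell with dose, by run. Boxes span the quartiles with the median as a line, and whiskers reach the farthest gene within 1.5 box lengths; genes beyond are not drawn. The rising genes centre on 0 at 25 mM, while the falling genes are already below 0.

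The steepest named rise was that of AT5G40000, an AAA-type ATPase. Its values were 3.81, 3.42, 4.55, 4.97 and 5.79 at 0, 25, 50, 75 and 100 mM in run 1, and 3.38, 2.74, 4.29, 4.79 and 5.14 in run 2. AT5G40000 was below the control at 25 mM in both runs (−0.51, adjusted p = 0.923) and above it from 50 mM on. The change at 100 mM was 1.87 (3.66-fold, SE 0.22, adjusted p = 1.6e-05), and the slope 2.22 per 100 mM (SE 0.19, adjusted p = 6.56e-08). Probe set 13421994, without a gene name, had a slope of 1.99 (SE 0.16, adjusted p = 3.86e-08) and kept this call whichever array was left out. AT1G59865, for which no role is given here, had the second steepest slope of the named genes (1.92, SE 0.39, adjusted p = 0.00676), and its course was different. It had 5.76 and 4.59 at 25 mM, against 4.80 and 2.90 in the control, and the changes were 1.32, 1.71, 2.02 and 2.06 in the order of rising dose. The 2 control values were farther apart than the 100 mM values, and the slope of AT1G59865 lost the call without the control array of run 2 (adjusted p = 0.107) and without the 100 mM array of run 2 (adjusted p = 0.155).

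A gene for an EF-hand protein was among the steepest risers. The functional groups in this and the next paragraphs were assigned by general knowledge of the loci after the calls were known, so their counts carry no test. The measured members of these groups were not counted, and 1.09% of all genes tested were called, so the counts say nothing of a family. Of the called genes, 5 genes for calcium-binding or calmodulin-binding proteins rose with dose and 1 fell. AT3G29000, an EF-hand calcium-binding protein, had 6.31, 6.37, 6.77, 7.41 and 8.06 at 0, 25, 50, 75 and 100 mM in run 1, and 5.16, 5.48, 6.31, 6.67 and 7.06 in run 2. AT3G29000 climbed at every step in both runs, and its call at 75 mM was lost without the control array of run 2. The change was 0.19, 0.80 (adjusted p = 0.0598), 1.30 (adjusted p = 0.000282) and 1.82 (3.54-fold, SE 0.17, adjusted p = 9.64e-07) over the 4 doses, with a slope of 1.91 (SE 0.15, adjusted p = 3.07e-08).

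CML23, a calmodulin-like protein, had its largest change at the top dose. The mean of its 75 and 100 mM values lay above that of 25 and 50 mM by 0.90 (SE 0.18, adjusted p = 0.0234). This call was lost when any of 5 arrays was left out. CML23 had 5.04 and 3.78 at 100 mM, against 3.51 and 2.53 in the control, a rise of 1.39 (2.62-fold, SE 0.26, adjusted p = 0.00633) after changes of −0.06, 0.31 and 0.65 at the lower doses. The other members of the calmodulin-like list that were measured did not pass the test: of 7 measured of 15 in the reference table, 1 rose and 0 fell, with a median slope of 0.23 against −0.01 over all genes. CML38, for example, had a slope of 0.23 (adjusted p = 0.837). The EF-hand protein AT4G27280 had a slope of 0.63 (adjusted p = 0.016), and the calmodulin-binding proteins AT5G57010 and AT2G26190 had slopes of 0.95 and 0.94. The slope calls of AT5G57010, AT2G26190 and AT4G27280 were lost without the control array of run 2 (largest adjusted p 0.0636, 0.0845 and 0.325 over the omissions), and the call of CML23 at 100 mM without either control array or the 100 mM array of run 1 (largest 0.122), while the slopes of AT3G29000 and CML23 kept theirs. IQD19, an IQ-domain protein that binds calmodulin, fell with dose (slope −0.57, adjusted p = 0.0287), with a change of −0.35 at 25 mM, and lost this call when any of 5 arrays was left out, the control of run 2 among them.

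VQ-motif proteins are short partners of WRKY transcription factors, and 3 of them rose. AT2G22880 had 5.24, 4.39, 5.48, 5.93 and 6.59 at 0, 25, 50, 75 and 100 mM in run 1, and 3.93, 4.36, 5.21, 5.54 and 5.87 in run 2. The runs disagreed at 25 mM, where AT2G22880 lay below its control in run 1 and above it in run 2, and agreed in direction from 50 mM on. Its slope was 1.86 (SE 0.21, adjusted p = 7.39e-06), and those of AT1G17147 and AT3G56880 were 1.12 and 0.99, and all 3 remained called whichever array was left out. The reference table lists these VQ genes by locus only, so the VQ list made from names held 0 measured genes. WRKY factors were little covered: 7 of 72 were measured, 0 passed limma's test of the slope, 4 had an unadjusted p under 0.05, and the median slope was 0.26. WRKY41 came nearest (slope 0.90, SE 0.23, adjusted p = 0.0533), with 6.76 and 5.13 at 100 mM, against 5.54 and 4.53 in the control.

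Zinc finger and other transcription factors gave 4 rises among the called genes. STZ, also called ZAT10, a C2H2 zinc finger repressor known from salt and drought responses, had 9.32, 9.24, 9.28, 9.58 and 9.84 at 0, 25, 50, 75 and 100 mM in run 1, and 8.40, 8.47, 9.01, 9.28 and 9.45 in run 2. STZ was flat up to 50 mM in run 1, whereas in run 2 it was already up at 50 mM. Its change at 100 mM was 0.78 (1.72-fold, SE 0.12, adjusted p = 0.00102) and its slope 0.86 (SE 0.11, adjusted p = 3.62e-05). Among the 5 measured of the 11 listed ZAT and AZF genes, 1 rose and 0 fell, and the median slope was 0.01. AT3G53600, of the same family, was higher by 0.68 at 25 mM and by 0.43 at 100 mM, neither past the threshold. The PLATZ factor AT5G46710 (slope 1.02) and the C2H2 factor AT1G68360 (slope 0.79) rose as well, beside AGL79. The slopes of STZ and AT5G46710 kept their calls under every omission. STZ was not called at 100 mM without the control array of run 2 (adjusted p = 0.155), AT1G68360 lost its slope call without the control of run 1 or the 100 mM array of run 2 (largest 0.109), and AGL79 lost its own when any of 5 arrays was left out, both control arrays among them.

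Genes for signalling at the cell surface and for protein turnover were among the called genes too. Of protein kinases and receptor-like kinases, 9 rose with dose and 1 fell, with slopes between −0.55 and 0.78. The number of kinases measured was not counted, and 1.09% of all genes tested were called, so nothing is read from this count about the family. PTI1-4, a kinase of the family of the tomato immune kinase Pti1, had the steepest of these slopes (0.78, adjusted p = 0.00653), with changes of 0.10, 0.24, 0.45 and 0.80 over the doses. Resistance proteins of the TIR or NBS-LRR class gave 4 rises, led by AT5G41740 (slope 1.24, adjusted p = 0.00136). Of the 14 genes in these 2 groups, AT1G70740, a kinase, and AT5G41740 kept their slope calls under every omission, and the other 12 lost theirs without the control array of run 2, PTI1-4 with an adjusted p of up to 0.11. AT1G33600, a leucine-rich repeat protein, had 4.05, 4.41, 4.44, 5.01 and 5.49 at 0, 25, 50, 75 and 100 mM in run 1, and 3.17, 3.41, 4.24, 4.68 and 4.89 in run 2. AT1G33600 was above the control of its own run at every dose, and its slope was 1.64 (SE 0.19, adjusted p = 9.61e-06).

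Among U-box and RING ubiquitin ligases, 5 rose and 0 fell in the slope. The measured ligases of these classes were not counted, and 1.09% of all genes tested were called, so nothing is read from this count. PUB24 and PUB23, U-box ligases known as negative regulators of immune signalling, were the 2 that rose among 16 measured members of the PUB and ATL list, whose median slope was −0.03. PUB24 had 6.56, 6.62, 7.02, 7.04 and 7.44 at 0, 25, 50, 75 and 100 mM in run 1, and 5.68, 6.26, 6.71, 7.04 and 6.89 in run 2. PUB24 was above its control on all 8 NaCl arrays, with a change of 1.04 at 100 mM (2.06-fold, SE 0.16, adjusted p = 0.000914, but 0.113 without the control array of run 2). Its slope of 1.08 kept its call under every omission. PUB23, at a higher level, had a slope of 0.65 (SE 0.12, adjusted p = 0.00426), which lost its call without the control array or the 100 mM array of run 2. The RING protein AT1G26800 had changes of 0.72, 0.75, 0.82 and 1.04 over the doses, and at 100 mM it rose (adjusted p = 0.0173, but not without either control array or the 100 mM array of run 1, largest 0.502). Other steep risers were AT2G24600, an ankyrin repeat protein (slope 1.69, adjusted p = 2.27e-07), and AT3G02840, an ARM repeat protein (slope 1.61, adjusted p = 1.74e-05).

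Among wall and lignin enzymes and inhibitors, 4 called genes rose and 1 fell. The measured genes of this group were not counted, and 1.09% of all genes tested were called, so nothing is read from this count. EXPA20 was the 1 gene that rose among 24 measured expansins of 37 listed, 0 fell, and the list had a median slope of 0.08. Its relative EXPB1, a beta-expansin, had changes of −0.28, −0.82, −0.39 and −0.59 over the doses, none past the threshold. CSLC04, which makes the glucan backbone of xyloglucan, had a slope of 0.53 (adjusted p = 0.00425), and CCR2, a cinnamoyl-CoA reductase of the lignin pathway, one of 0.63 (adjusted p = 0.0296). AT1G02810, of the pectin methylesterase and inhibitor superfamily, rose by 0.63 at 100 mM (adjusted p = 0.0421). The calls of CSLC04, CCR2 and AT1G02810 were lost without the control array of run 2 (largest adjusted p 0.09 and 0.433 for the slopes of CSLC04 and CCR2, and 0.534 for AT1G02810 at 100 mM). Of 10 measured xyloglucan endotransglucosylases, which cut and rejoin xyloglucan, 0 passed limma's test of the slope, 2 had an unadjusted p under 0.05, and the median slope was −0.07. XTH16 had the largest of these slopes in size, −0.62 (adjusted p = 0.164).

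AT4G25250, a member of the invertase and pectin methylesterase inhibitor family, was the steepest falling gene that kept its call whichever array was left out among the named ones. Its values were 5.21, 4.75, 4.40, 4.56 and 4.26 at 0, 25, 50, 75 and 100 mM in run 1, and 6.02, 5.45, 5.10, 5.03 and 5.0 in run 2. AT4G25250 was below the control of its own run at every dose, and most of the fall was reached by 50 mM (−0.51, −0.86, −0.82 and −0.98). The slope was −0.91 (SE 0.16, adjusted p = 0.0016). AT5G26070 had a steeper slope (−1.44, SE 0.36, adjusted p = 0.0458), but its runs differed: it had 4.51 and 4.10 at 25 mM, against 3.77 and 4.53 in the control. Its call was lost when any of 7 of the 10 arrays was left out, among them both control arrays.

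Cysteine- and histidine-rich C1-domain proteins, for most of which no function is established, gave 0 rises and 4 falls among the called genes. The group was put together after the calls were known and its measured members were not counted, so beside the 57 falls among 28283 genes tested it says nothing of the family. AT5G54030 had 3.86 and 4.01 at 75 mM, against 5.02 and 5.01 in the control (−1.08, SE 0.20, adjusted p = 0.0166), and was back at 4.43 and 4.26 at 100 mM. AT1G55700 fell at 75 mM (−0.78, adjusted p = 0.02) and at 100 mM (−0.73, adjusted p = 0.0141). AT2G17590 had a slope of −0.88 (adjusted p = 0.0448), with a value of 2.82 at 25 mM above the 2.41 of its control in run 1. The 4 slopes lay between −0.90 and −0.66, and each of them lost its call without the control array of run 2. The RNA-binding protein AT1G78260 fell as well (slope −0.80, adjusted p = 0.0016) and kept this call under every omission.

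Members of the nitrate and peptide transporter family gave 3 rises and 0 falls among the called genes. How many members were measured was not counted, and 1.09% of all genes tested were called, so nothing is read from this about the family. NAXT1, a plasma membrane transporter that releases nitrate from root cells, had a slope of 0.54 (adjusted p = 0.00348) and a change of 0.54 at 100 mM (adjusted p = 0.0152). Its neighbour of the same family, AT3G45660, had a slope of 0.97 (adjusted p = 0.0253), and AT1G59740 one of 0.71 (adjusted p = 0.00296). NAXT1 was not called at 100 mM when either control array or either 100 mM array was left out (largest adjusted p 0.24). The slope calls of all 3 were lost without the 100 mM array of run 1, and those of NAXT1 and AT3G45660 also without the control array of run 2, with largest adjusted p of 0.0588, 0.421 and 0.0617. Probe sets of such close relatives can share signal, and this was not tested.

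**Figure D4:**
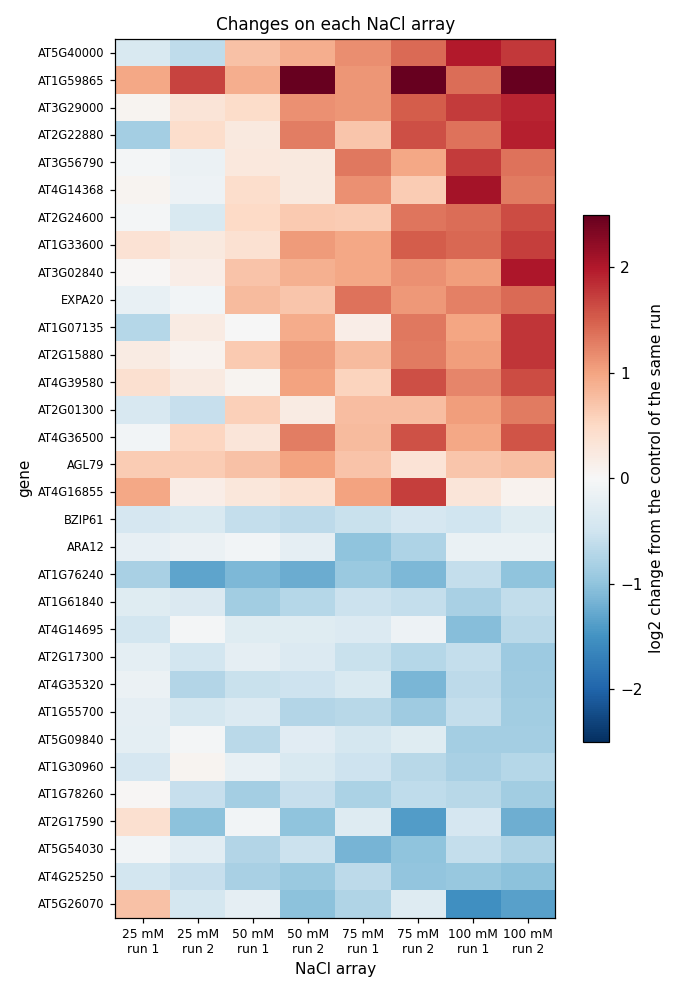
Log2 change from the control of the same run (colour, from −2.5 in blue to 2.5 in red) for 32 named genes (y axis, sorted by slope) on each NaCl array (x axis, dose and run). Many of the rising genes darken toward 100 mM, while AGL79 is raised most at 50 mM and AT4G16855 at 75 mM. AT1G59865 is raised from 25 mM on, and AT1G76240 is lowered most at 50 mM in run 1 and at 25 mM in run 2.

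To ask which genes moved at the high doses, the mean of 75 and 100 mM was set against the mean of 25 and 50 mM, a comparison that uses no control array. Here 89 genes rose and 2 fell (0.322% of the genes tested, 1807 at an unadjusted p under 0.05). None of the 89 was called at 25 or 50 mM against the control. Over all genes tested, 0.00707% and 0.0247% were called at these doses, so this says little of the 89. Of the 89, 58 rose at 100 mM, and 83 were among the 252 genes that rose with dose, which the same NaCl arrays enter. AT5G40000 led with 1.42 (SE 0.15, adjusted p = 7.4e-06). AT3G56790 followed with 1.26 (SE 0.14, adjusted p = 7.8e-06), and it had 6.06 and 5.44 at 75 mM, against 5.01 and 4.72 at 50 mM. AT4G14368 went on climbing at the top dose, with 5.12 and 3.37 at 100 mM, against 4.19 and 2.72 at 75 mM, and its high doses differed from the low ones by 1.14 (SE 0.19, adjusted p = 0.00295). EXPA20 (0.97), AT2G24600 (1.07), AT3G29000 (1.07), AT2G22880 (1.12) and STZ (0.54) were called too.

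Of the functional groups, 0 of the 9 kinases that rose with dose were called here, beside 4 of the 5 calcium-related genes and 2 of the 3 VQ genes. In the other groups, 3 of 4 wall and lignin genes and 1 of 4 resistance proteins were called. So were 1 of 5 ubiquitin ligases, 1 of 3 transporters and 1 of 4 transcription factors. These groups were made after the calls were known. Of all 252 genes that rose with dose, 83 were called here. The largest slope was 0.78 among the kinases, against 1.91 among the calcium-related genes and 1.86 among the VQ genes. The difference between groups was not tested. AT4G28790, a bHLH transcription factor, was lower at the high doses, where the 75 mM arrays had 1.38 and 1.26 and the 100 mM arrays 1.60 and 1.32, against 2.45 and 1.85 on the 25 mM arrays and 2.45 and 2.14 on the 50 mM arrays. Its control values were 1.66 and 1.56, and its changes against the control of 0.54, 0.68, −0.29 and −0.15 over the 4 doses did not pass the threshold (difference of high and low doses −0.83, SE 0.14, adjusted p = 0.00407). AT4G28790 averaged 1.77 over the 10 arrays, near the low end of the deposited range. AT4G12870 was the other gene that fell (−0.52, adjusted p = 0.0493), and it lost this call when any of 8 arrays was left out, both control arrays among them. Whichever array was left out, 24 of the 89 remained called. The count was 28 without the 25 mM array of run 2, 29 without the 75 mM array of run 2, 32 without the 50 mM array of run 1, 38 without the 100 mM array of run 2 and 59 without the 100 mM array of run 1. It was 1 without the run as a block.

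The mean over the 4 doses, which weighs early and late changes alike, was above the control for 33 genes and below it for 26 (0.209% of the genes tested). It called 0 genes without the run as a block, 0 without the control array of run 2 and 37 without that of run 1. A bend of the dose course apart from its slope was not called for any gene (0% of the genes tested). By limma, 0 genes passed and 1713 had an unadjusted p under 0.05, while 3 passed after quantile normalisation. A slope over the 4 NaCl doses alone, without the control, called 163 rises and 5 falls (0.594% of the genes tested), and 145 and 2 of these were also called with the control included. When the 100 mM arrays were left out of the slope, an alternative chosen after seeing the data, 58 genes rose and 24 fell (0.29%), and 53 and 17 of these were among the genes called over all doses.

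Few genes of the lists linked to salt and water deficit were measured, and with 1.09% of all genes called, 0 calls among so few says little about these lists. Of 23 genes for abscisic acid and dehydration responses, 4 were measured under a single name, and 0 passed limma's test of the slope or had an unadjusted p under 0.05. COR47, a dehydrin, had 9.36 and 9.27 at 100 mM, against 9.42 and 9.38 in the control, a change of −0.09 (SE 0.09, adjusted p = 0.894). COR15A and KIN1, cold- and dehydration-regulated genes, had slopes of 0.10 and 0.21 with SE of 0.18 and 0.21, and KIN2, of the same kind, had one of −0.30 (SE 0.25). These 3 averaged 1.38, 1.79 and 2.17 over the 10 arrays, near the low end of the deposited range, where a change may not be detectable. DREB2C, the 1 measured gene of 47 ERF and DREB factors, had a slope of −0.32 (SE 0.20, adjusted p = 0.665).

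The slope also called 0 of 7 peroxidases, 0 of 14 glutathione transferases, 0 of 19 early auxin genes, 0 of 3 heat shock genes, 0 of 4 pectin methylesterases and inhibitors and 0 of 1 MAP kinase. An unadjusted p under 0.05 was found for 2 of the auxin genes and for 0 genes of the other lists in that sentence. In the auxin list IAA15 had the largest slope, 0.66 (SE 0.25, adjusted p = 0.298). The aquaporin rule matched AQI alone, an aquaporin interactor and not an aquaporin, with a slope of −0.08. Genes for sodium and proton transport, jasmonate, calcium-dependent kinases, arabinogalactan proteins and leucine-rich repeat proteins were not analysed here as lists, since 0 were measured under a single name that matched.

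NaCl was set against ethylene glycol, a small solute that enters cells readily, at equal nominal osmolarity (25, 50, 75 and 100 mM NaCl with 50, 100, 150 and 200 mM ethylene glycol, counting both ions). Of the genes tested, 72 were higher and 80 lower under NaCl (0.537%, 4268 at an unadjusted p under 0.05). Without the run as a block 0 were called. The split depended on the scaling, with 109 higher and 46 lower after quantile normalisation and 95 and 48 after centring on array medians. Over the omission of single NaCl arrays the count ran between 67, without the 100 mM array of run 1, and 231, without the 50 mM array of run 2, and 26 of the 72 and 23 of the 80 remained called throughout. The ethylene glycol arrays were not left out in turn. The SD of all values on an array was 2.11 to 2.19 for NaCl and 2.20 to 2.21 for ethylene glycol in run 1, and 2.1 to 2.15 and 2.13 to 2.15 in run 2, and the part of this spread in the result was not tested.

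Among the named genes, AT1G33600 had 3.41, 4.56 and 5.49 as lowest, median and highest value on the 8 NaCl arrays, against 2.77, 3.53 and 4.18 on the 8 ethylene glycol arrays. NaCl was above ethylene glycol in 8 of 8 pairs of equal osmolarity and run, with a mean difference of 1.02 (SE 0.11, adjusted p = 1.6e-05). WRKY41 was higher under NaCl by 0.69 (SE 0.13, adjusted p = 0.0106), and EXPA20 by 0.33 (adjusted p = 0.0422, lost in 6 of the 10 omissions). The steep risers AT5G40000 and AT3G29000 differed from ethylene glycol by −0.21 (adjusted p = 0.347) and 0.06 (adjusted p = 0.77). AT1G76240, which fell early under NaCl, had 5.62, 6.10 and 6.78 as lowest, median and highest value under NaCl, against 5.87, 6.67 and 7.26 under ethylene glycol (−0.51, SE 0.10, adjusted p = 0.00958). Its control mean of 7.16 lay above the means of both solutes.

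Against sorbitol, a sugar alcohol without ions, at 50, 100 and 150 mM paired with 25, 50 and 75 mM NaCl, 0 genes (0%) passed limma's test with the run as a block, with 1736 at an unadjusted p under 0.05. Without the block 0 passed, and 557 reached an unadjusted p under 0.05. Scaling raised the count to 7 after quantile normalisation and 6 after centring. AT2G15880, which rose with dose (slope 1.49, SE 0.23, adjusted p = 0.000446), differed between NaCl and sorbitol by 0.87 (SE 0.15, adjusted p = 0.0514). AT1G33600 differed by 0.63 (SE 0.12, adjusted p = 0.0909), AT3G29000 by −0.40 (SE 0.10, adjusted p = 0.279) and EXPA20 by 0.41 (SE 0.09, adjusted p = 0.167). STZ (0.04, SE 0.07) and PUB24 (0.06, SE 0.09) had small differences, and a p above the threshold does not show that the solutes act alike.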

How the data were processed

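Root RNA was measured on whole-transcript Affymetrix arrays with a biotin label, per the labels. The authors deposited 1 value per probe set, for which the submitters' processing notes name GCRMA, Affymetrix Expression Console and Transcriptome Analysis Console, without versions. GCRMA corrects probe intensities for background and summarises them. These deposited values were read as log2 from their range of 0.2 to 12.45; no source used here gives their log base or scaling, and with another base the folds would change and the tests would not. The number of arrays limits the precision.

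Of 28477 probe sets, 16746 listed 1 gene, 758 several and 10973 none; 16697 matched a RefSeq gene (TAIR10.1, names only). The brightest probe set of a gene was kept, which set aside 194. Some 528 probe sets held values identical to another. The number of columns set aside was 0.

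The fit used limma 3.58.1 in R 4.3.3 with all 32 arrays, 16 group means, the run as a block and a variance trend, and Benjamini-Hochberg over 28283 genes at 0.05; simulated data tested the script. Contrasts were each dose, the slope, the mean over doses, high against low doses, curvature, and NaCl against ethylene glycol and sorbitol. The pairing comes from the title numbers (17 to 32 and 33 to 48): in all 10 pairs of control and NaCl groups, arrays of a run deviated together (r = 0.594 to 0.684 across genes). The median residual SD was 0.190 with the block and 0.272 without it. Alternatives were no block, the control and NaCl arrays only, quantile normalisation, centring, no dim genes, no variance trend and each array left out.

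Named genes were the 14 steepest rises and 10 steepest falls of the slope, the largest 6 rises and 4 falls of each dose, the 8 largest in each direction between high and low doses, up to 4 members of each list by slope p, and the largest differences from ethylene glycol; other genes were named after their values were seen. The doses, lists and members were chosen with earlier results of these data known. A planned search for promoter motifs was not run. Gene roles are general knowledge and not from the files.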

Additional observations from a re-analysis of the deposited data

Results flagged for a closer look

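Differences between NaCl and ethylene glycol at equal nominal osmolarity were called for 8 genes named by the rule for solute differences, each as the mean over 4 doses and 2 runs in limma with the run as a block. AT1G59865 was higher under NaCl by 1.21 (SE 0.22, adjusted p = 0.00673) and AT5G11140 by 1.1 (SE 0.16, adjusted p = 0.00117). AT1G33600 was higher by 1.02 (SE 0.11) and AT1G51920 by 0.75 (SE 0.13, adjusted p = 0.00423). NaCl was above ethylene glycol in 8 of 8 pairs for these genes except AT5G11140, where it was above in 7. AT1G51920 illustrates the distance between runs: its control values were 6.65 in run 1 and 4.19 in run 2, and its NaCl slope of 0.66 was not called (adjusted p = 0.23).

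The other 4 genes were lower under NaCl in 8 of 8 pairs. All 8 genes were chosen by this difference, so the pair counts add no support. AT3G11385 differed by −0.63 (SE 0.10, adjusted p = 0.00198). It had 4.38, 4.80 and 5.15 as lowest, median and highest value under NaCl, against 5.21, 5.40 and 5.63 under ethylene glycol. These values span 4 doses, and the share of all genes with ranges this far apart was not counted. Its mean was 4.77 under NaCl, 5.06 in the control and 5.39 under ethylene glycol. Its NaCl slope was not called (adjusted p = 0.429). AT5G19190 differed by −0.60 (SE 0.09, adjusted p = 0.00171), AT1G76240 by −0.51 (adjusted p = 0.00958) and AT2G17300 by −0.51 (adjusted p = 0.0112). AT1G76240 was below its control mean of 7.16 under both solutes, with 6.14 under NaCl and 6.65 under ethylene glycol. The ethylene glycol means of AT5G19190 and AT2G17300 were 4.78 and 4.72, against 4.76 and 4.72 in the control. All 8 differences stayed called when any of the NaCl arrays was left out, and all 8 lost the call without the run as a block.

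PRXCA, a peroxidase, had changes of opposite sign in the 2 runs. Its changes were −0.53, −0.16, −0.57 and −0.53 over the 4 doses in run 1, and 1.00, 0.44, 0.32 and 0.35 in run 2, while its slope was −0.22 (SE 0.23, adjusted p = 0.856). It averaged 1.52 over the 10 arrays, near the low end of the deposited range, no change passed the threshold, and the 4 changes of a run share 1 control value (1.84 in run 1 and 1.13 in run 2). The difference between runs was not tested.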

How the results depend on the processing

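No named gene that was called changed direction in the comparison it was called in under an alternative. Slopes near 0 that were not called did, as that of CML38 (−0.04 to 0.49 when 1 array was left out) and that of PRXCA (−0.50 to 0.07). With no replicate block, 0 genes were called at 25, 50, 75 and 100 mM, 8 for the slope, 0 for the mean over doses (59 with the block), 1 for high against low doses and 0 for NaCl against ethylene glycol. With the control and NaCl arrays only, the counts were 3 at 50 mM, 17 at 75 mM, 79 at 100 mM, 30 for the mean over doses, 43 for high against low doses and 1 for curvature. Quantile normalisation gave 16 at 50 mM, 3 for curvature and 7 for NaCl against sorbitol, and centring on array medians gave 26 at 50 mM and 6 for sorbitol. The split at 50 mM was then 11 higher and 5 lower, or 18 and 8, against 2 and 5 in the deposited scaling, and for the mean over doses 51 and 24 after quantile normalisation, against 33 and 26. Without the dimmest genes, 229 genes differed from ethylene glycol and 4 from sorbitol. Without a variance trend the counts were 0, 3, 15 and 110 at the 4 doses, 22 for the mean, 39 for high against low doses and 47 for ethylene glycol. The slope called 168 genes over the NaCl doses alone and 82 without the 100 mM arrays.

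Leaving out 1 array at a time gave 0 to 4 calls at 25 mM, 0 to 33 at 50 mM, 1 to 38 at 75 mM, 24 to 193 at 100 mM, 89 to 329 for the slope, 0 to 61 for the mean over doses, 28 to 125 for high against low doses, 0 to 1 for curvature, 67 to 231 for ethylene glycol and 0 to 4 for sorbitol. A group left with 1 array is assumed to vary like the others. The cause of these changes was not tested.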
